A study of Oryza sativa Japonica Group with 6 samples.

Results

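CBL and CIPK genes encode the partners of a plant calcium-signalling pathway, and their transcript levels were compared here between the synergid and antipodal cells of the rice embryo sac. The members were the genes whose symbol or synonym is CBL or CIPK followed by a number, with or without the prefix Os, and which have a probe set paired with no other gene. That rule found 31 of the 17905 genes that have a probe set of their own, 7 CBL genes and 24 CIPK genes, read by 42 probe sets. The gene table lists 39 genes with such names. The other 8 (CBL1, CBL7, CIPK3, CIPK9, CIPK13, CIPK15, CIPK27 and CIPK33) had no probe set paired with them alone and were not analysed here. Probe sets paired with several genes were not searched for them.

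The study hybridised RNA of synergid cells to 3 Affymetrix arrays and RNA of antipodal cells to another 3, all from wild-type rice of the cultivar Katy (Oryza sativa ssp. japonica) grown in a greenhouse and collected at anthesis. Synergids flank the egg cell and receive the pollen tube, and antipodals lie at the chalazal end of the embryo sac. The cells were dissected by hand without enzymes, and their RNA was amplified over 2 cycles before labelling. Arrays are labelled as biological replicates, but no separate plants or days are named, so each p-value reflects spread between samples that may be technical in part.

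CBL proteins (calcineurin B-like) are small calcium sensors with EF-hand domains, and many of them carry lipid groups that fix them to the plasma membrane or to the membrane of the vacuole. On binding calcium they recruit a CIPK (CBL-interacting protein kinase, also called SnRK3), whose regulatory tail holds a short NAF motif that binds the sensor and keeps the kinase inactive until then. The complexes phosphorylate ion transporters and channels for potassium, sodium, nitrate and ammonium, as well as oxidases that make reactive oxygen. Calcium rises in synergids are known from Arabidopsis when the pollen tube arrives. CIPK numbers in rice and Arabidopsis do not always mark the nearest relatives, so a role known from Arabidopsis is given below as background only.

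The deposited values are linear MAS5 signals, a brightness per probe set, scaled on each array to the same trimmed mean (500.1). Array medians over non-control probe sets were 46.5 to 67.1 in synergids and 54.4 to 170.3 in antipodals, with antipodal array 2 at the top. Poly-A spike-in controls, added to the RNA before amplification, were bright on synergid array 2 and antipodal arrays 2 and 3 (41189 to 134411) and dimmer on synergid arrays 1 and 3 and antipodal array 1 (3865 to 7597). Hybridisation controls were at 60392 on antipodal array 2 and at 6311 to 12463 on the other arrays. The part of this difference in the results below was not tested. Symbols of defining synergid and egg-cell markers matched no probe set paired with 1 gene, so the label of the cells could not be checked with them. The endosperm markers GLUA1 and prolamin were dim, with summed signals of 5.61 to 22.1 on the synergid arrays and 16.4 to 223 on the antipodal arrays. The leaf markers CAB2R and rbcS summed to 3913 to 8871 on the synergid arrays and 5732 to 11410.5 on the antipodal arrays, nearly all of it from CAB2R (log2 fold change -0.65, adjusted p = 0.699 in limma). Of 4 markers of the surrounding ovule tissue, MADS13, MADS21 and MADS29 were higher on every synergid array than on any antipodal array and ANT overlapped. The summed signal of these 4 was 32737 to 42084 on the synergid arrays and 22488 to 37789 on the antipodal arrays. Gene by gene the difference was larger, with log2 fold changes of 0.015 to 1.82 and a median of 1.49, higher in synergids. An unadjusted p under 0.05 in limma was reached by 3 of the 4 (75%), against 8.3% of all tested probe sets. Their smallest adjusted p was 0.196 in limma. The part of any of these markers in the results below was not tested.

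No CBL or CIPK gene differed between the cell types past the threshold. With limma fitted to all 34355 tested probe sets and Benjamini-Hochberg adjustment over them, 0 of 31 genes had an adjusted p under 0.05, against 0.32% of all tested probe sets (0.256% higher and 0.064% lower in synergids). An unadjusted p under 0.05 was reached by 3 of the 31 (CIPK6, CIPK14 and CIPK24), or 9.68%, close to the 8.3% of all tested probe sets. The smallest adjusted p was 0.492. All 42 probe sets lay above the filter on dim probe sets, which was set on the mean over all 6 arrays. The number of cells per array is unclear, and fewer expressing cells and less RNA per cell cannot be told apart in any of these values.

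Fold changes are given as log2 of the synergid over the antipodal level, on the log2(signal + 16) scale. They were above 0 for 20 of the 31 genes (64.5%), against 45.3% of all tested probe sets, and their median was 0.23 against -0.08. Without antipodal array 2, which had the highest array median, these medians were 0.07 and 0.02. With all 6 arrays the median was 0.02 for the 7 CBL genes and 0.31 for the 24 CIPK genes. A difference of at least 2-fold (an absolute log2 value of 1) was seen in 6 genes, or 19.4%, as in 19.8% of all tested probe sets. The 3 synergid arrays lay wholly above the 3 antipodal arrays for CIPK1, CIPK26 and CIPK32 and wholly below them for no gene. These 3 genes are 9.68% of the members, while 13.4% of all tested probe sets had no overlap (6.17% higher and 7.26% lower in synergids). These shares describe the family, and the family as a whole was not tested.

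**Figure D1:**
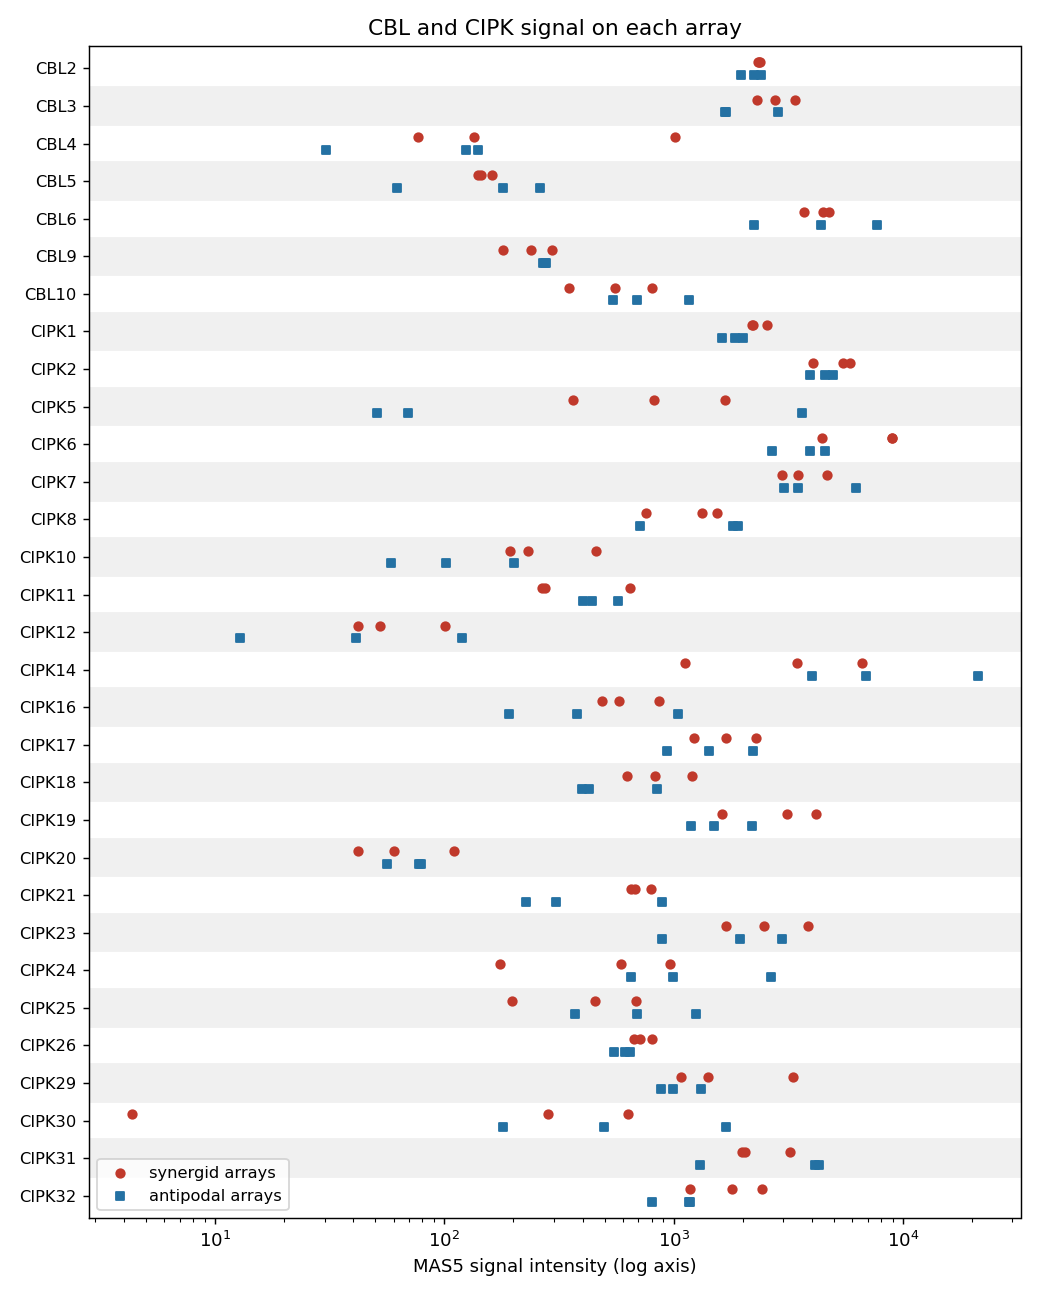
MAS5 signal intensity (log axis) of the 31 CBL and CIPK genes on the 3 synergid arrays (red circles, upper in each row) and the 3 antipodal arrays (blue squares, lower). Points of the same colour lie close together for CBL2 and CIPK26 and far apart for CIPK5 and CIPK30, and the colours separate only for CIPK1, CIPK26 and CIPK32.

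Among the CBL sensors, CBL2 was the steadiest over the synergid arrays. CBL2 (LOC4352701), whose product is found at the vacuole membrane in rice aleurone cells, had signals of 2326, 2381 and 2342 in synergids, against 2399, 1966 and 2229 in antipodals. All 6 values lay within a narrow band. Its fold was 1.07 with a 95% interval of 0.668 to 1.72, which lay within 2-fold in either direction. CBL6 (LOC4351575) had 4765, 4456 and 3683 in synergids and 7715, 2233 and 4370.45 in antipodals. Its antipodal values ran both above and below all synergid values, and its fold of 1.01 had an interval of 0.556 to 1.84. Intervals within 2-fold either way were obtained for 4 of the 31 genes (CBL2, CBL6, CIPK2 and CIPK7), or 12.9%, and for 9.26% of all tested probe sets.

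CBL3 (LOC4333502), a close relative of CBL2 in Arabidopsis and likewise a vacuolar sensor there, had 2309.7, 3375 and 2766 in synergids against 1689.8, 1669.7 and 2846 in antipodals. Antipodal array 3 fell inside the synergid range, and the log2 fold change of 0.47 (SE 0.35) had an adjusted p of 0.764 in limma. CBL10 (LOC4325933), needed for salt tolerance of shoots in Arabidopsis, had 553, 349 and 806 against 693, 1165 and 544 on the antipodal arrays, and its log2 fold change was -0.49 (SE 0.47). CBL4 (LOC4339432), the counterpart of the salt-tolerance sensor SOS3, was dim on 5 of 6 arrays. It had 76.6, 1010.5 and 134 in synergids against 30.4, 141 and 124 in antipodals, so that synergid array 2 alone stood high. Its log2 fold change of 1.27 (SE 0.88) rested on that array and came to 0.23 without it. The remaining sensors were dim. CBL5 (LOC4325962, a locus also listed as CBL2) had 145, 162 and 139.5 in synergids and 179, 62.1 and 262 in antipodals, and CBL9 (LOC9269084) had 238, 179 and 295 against 279, 269 and 274.

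**Figure D2:**
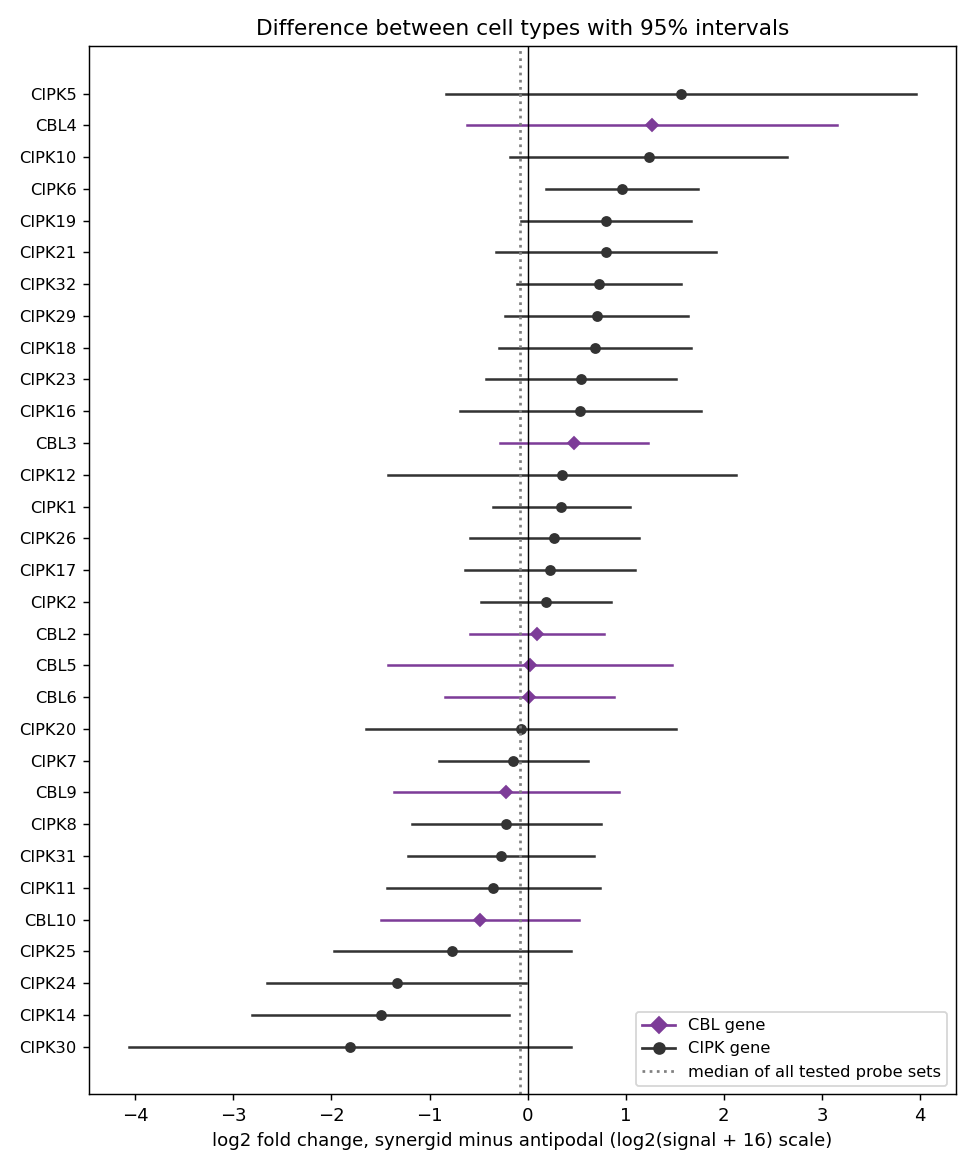
Log2 fold change, synergid minus antipodal on the log2(signal + 16) scale, with its 95% interval from limma for each CBL gene (purple diamonds) and CIPK gene (black circles), highest at the top. The dotted line marks the median of all tested probe sets (-0.08), and the intervals of CIPK6, CIPK14 and CIPK24 alone leave out 0, before any adjustment for the number of probe sets.

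CIPK6 (LOC4345687) had the smallest p of the family. In Arabidopsis the kinase of this number acts with CBL4 to bring the potassium channel AKT2 to the plasma membrane. Its signals were 8938, 4448 and 8964.5 in synergids against 2678, 3929 and 4546 in antipodals, and only the lowest synergid value fell inside the antipodal range. The means were 7450.2 ± 2600 and 3718 ± 951 (SD, n = 3 each), a 1.95-fold difference (log2 fold change 0.96, SE 0.36, adjusted p = 0.492 in limma). Over the 18 other settings its log2 fold change stayed between 0.58 and 1.30, and its adjusted p between 0.182 and 0.999.

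The genes without overlap differed by less than 2-fold. CIPK1 (LOC4325161), which works with CBL1 and CBL9 in abscisic acid and osmotic responses of Arabidopsis, had 2546, 2192 and 2222 in synergids against 1856, 1624 and 2009.7 in antipodals. The groups were narrow and close together, and the fold was 1.27 (interval 0.782 to 2.05). CIPK26 (LOC4328383), which in Arabidopsis phosphorylates the oxidase RBOHF, had 713, 671 and 807 against 612, 549 and 641. Its fold was 1.21 with an interval of 0.664 to 2.2. CIPK32 (LOC4351419) had 1178.3, 2435 and 1788 in synergids against 807, 1167 and 1178.2 in antipodals. Its lowest synergid and highest antipodal value were nearly equal, and its log2 fold change was 0.73 (SE 0.39, adjusted p = 0.656 in limma). A second, much dimmer probe set of CIPK32 gave -0.17.

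Other kinases with higher synergid means overlapped with antipodals. CIPK10 (LOC4332786) had 232, 460.0 and 193 in synergids against 102, 201 and 58.3 in antipodals, a log2 fold change of 1.23 (SE 0.66, adjusted p = 0.656 in limma). All 4 of its probe sets had a positive value, from 0.38 to 1.23. The others were dim, with signals of 3.45 to 204. Their mean signals were 85.9, 57.4 and 72.3 in synergids against 59.6, 65.7 and 73.3 in antipodals. CIPK19 (LOC4339306), whose Arabidopsis namesake is needed for polar growth of pollen tubes, had 4169, 1624 and 3126 against 1499, 1191 and 2202, with a log2 fold change of 0.80 (SE 0.41). CIPK29 (LOC4344285) had 1408, 1077 and 3326 against 877, 993 and 1317, and its log2 fold change was 0.70. CIPK21 (LOC4344036), a salt and osmotic stress kinase in Arabidopsis, had 649, 795 and 675 against 226, 307 and 892 in antipodals. The synergid values of CIPK21 were close together, and antipodal array 3 exceeded them all.

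CIPK14 (LOC4351307), CIPK24 (LOC4341477) and CIPK30 (LOC4325611) had the lowest log2 fold changes of the family. CIPK14 takes part in defence responses of rice cells to a microbial elicitor. Its signals were 6609, 1122 and 3460.5 in synergids against 21260.0, 4026 and 6869.6 in antipodals, with a log2 fold change of -1.50 (SE 0.61, adjusted p = 0.539 in limma). CIPK24 is the rice counterpart of the salt-tolerance kinase SOS2, which with CBL4 activates the sodium exporter SOS1. It had 962, 175 and 588 in synergids against 2665, 651 and 991 in antipodals, with a log2 fold change of -1.33 (SE 0.62, adjusted p = 0.597 in limma). Without synergid array 2 the value of CIPK24 was -0.66, and without antipodal array 1 it was -0.76. CIPK30 had 631, 4.32 and 284 against 1684, 497 and 179 (log2 fold change -1.81, SE 1.06, adjusted p = 0.696 in limma). For CIPK14 and CIPK24 the groups overlapped through synergid array 1 alone, and for CIPK30 through synergid arrays 1 and 3. All 3 genes had their lowest value on synergid array 2 and their highest on antipodal array 1. The value of CIPK30 rests largely on its signal of 4.32 on synergid array 2, since its log2 fold change was -0.33 without that array. Without the same array CIPK14 had -0.81, and without antipodal array 1 it had -0.83 and CIPK30 -1.002.

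These 3 genes separated the cell types among arrays of like poly-A control signal, a split made after the values were known. Synergid array 2 was the only bright-control synergid array, and antipodal array 1 the only dimmer-control antipodal array. With the lowest value on the former and the highest on the latter, this separation was fixed in advance, so it adds no support of its own. On the bright-control arrays CIPK14 had 1122 in the synergid array and 4026 and 6869.6 in the antipodal arrays. On the dimmer-control arrays it had 6609 and 3460.5 in the synergid arrays and 21260.0 in the antipodal array. The same order held for CIPK24, with 175 against 651 and 991, and 962 and 588 against 2665. With this split as a block in limma the log2 fold change of CIPK14 was -2.18 (adjusted p = 0.00976), that of CIPK24 was -1.95 (adjusted p = 0.0651) and that of CIPK30 was -2.95 (adjusted p = 0.0684). In that fit 0.684% of all tested probe sets were called, and CIPK14 was the only member. Over the 18 other settings the adjusted p of CIPK14 ran from 0.00976 to 0.999 and its log2 fold change from -2.18 to -0.81. Within a control level 1 of the cell types has a single array, so these values rest on few arrays.

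**Figure D3:**
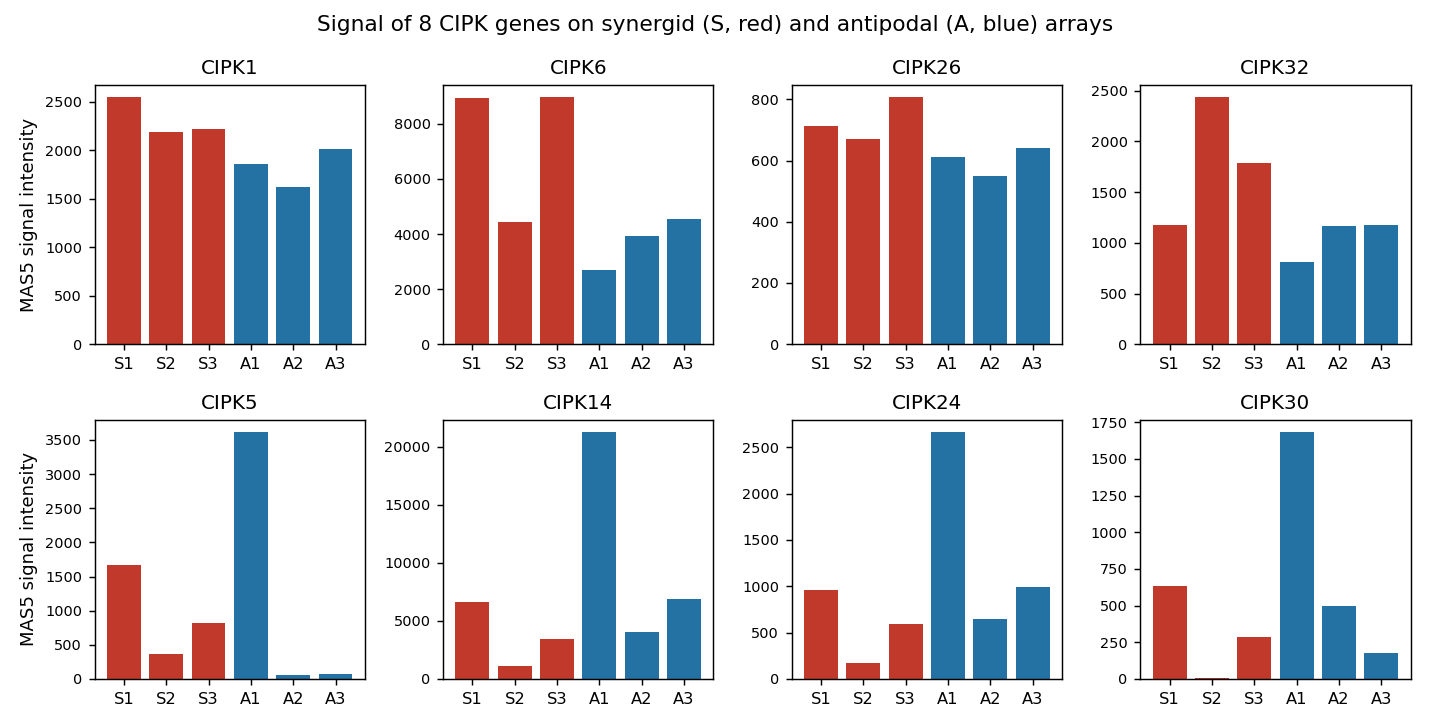
MAS5 signal intensity of 8 CIPK genes on synergid arrays 1 to 3 (S1 to S3, red) and antipodal arrays 1 to 3 (A1 to A3, blue), with 1 bar per array and an axis from 0 in each panel. In the lower row, CIPK5, CIPK14, CIPK24 and CIPK30 all have their highest bar at A1 (3616, 21260.0, 2665 and 1684) and their highest synergid bar at S1.

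CIPK5 (LOC4327093) varied more among antipodal arrays than any other member. It had 1669, 363 and 824 in synergids against 3616, 51.0 and 69.2 in antipodals. The log2 fold change was 1.56 (SE 1.12, adjusted p = 0.753 in limma), while the mean signal was lower in synergids, at 952 ± 662 against 1245 ± 2053 (SD, n = 3 each). The sign thus depends on whether levels are averaged before or after the logarithm. Without antipodal array 1, CIPK5 had a log2 fold change of 3.43 and an adjusted p of 0.0394, a fit in which 0.387% of all tested probe sets were called. Its adjusted p lay between 0.0394 and 0.999 over the 18 other settings.

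For 7 genes (CBL6, CIPK5, CIPK12, CIPK14, CIPK24, CIPK25 and CIPK30) synergid array 1 was the highest synergid array and antipodal array 1 the highest antipodal array, a pattern looked for after the values were seen. That is 22.6% of the members, against 10.2% of all tested probe sets. Related gene lists, described below, had similar shares in part. The pattern held for 25% of the transporters and oxidases and 25% of the SnRK1 and SnRK2 kinases. It held for 22.2% of the calcium-dependent kinases and 22.2% of the calcium channels and pumps. Protein phosphatases 2C had 10.9% and calmodulins 8.33%. Antipodal array 1 exceeded the mean of the other antipodal arrays 2.34-fold (CBL6) to 60.2-fold (CIPK5). Synergid array 1 exceeded the mean of the other synergid arrays 1.17-fold (CBL6) to 4.38-fold (CIPK30). These 2 arrays were also the ones deposited with fewer digits than the rest, and the part of that in the pattern was not tested. CIPK25 (LOC4341236), for one, had 682, 455 and 198 in synergids against 1247, 372 and 691 in antipodals, and its log2 fold change was -0.77 (SE 0.56).

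CIPK2, CIPK7 and CIPK31 had bright probe sets whose signals overlapped between the cell types. CIPK2 (LOC4344287) had 5496, 4034 and 5844 in synergids and 4927, 3911 and 4546 in antipodals, a fold of 1.14 (interval 0.72 to 1.8). CIPK7 (LOC4333514) had 3466, 2978 and 4664 against 3011, 6222 and 3483, a fold of 0.904 (interval 0.533 to 1.53). The gene table also lists TATA and THA4 for the CIPK7 locus, names of a protein of the thylakoid translocase, and its second probe set was dim (8.01 to 209), so which transcript the bright one reads cannot be told from these files. CIPK31 (LOC4332665, also listed as CIPK3) had 3223, 2042 and 1988 in synergids against 1295, 4299.7 and 4139 in antipodals. Antipodal array 1 was its lowest and the other antipodal arrays its highest, and its log2 fold change was -0.27 (SE 0.45). Its fold of 0.828 had an interval of 0.428 to 1.6, so similar levels were not shown for CIPK31.

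CIPK23 (LOC4342410) is the best studied kinase of the family. With CBL1 it activates the potassium channel AKT1 in rice and Arabidopsis roots, and in rice it has been linked to pollination. It had 1692, 3863 and 2469.5 in synergids against 1953, 887 and 2973 in antipodals, with a log2 fold change of 0.54 (SE 0.45, adjusted p = 0.792 in limma). Its second probe set gave a near-equal 0.52, with 786, 307 and 847 against 593, 386 and 296. Transcripts of CIPK23 were thus measured in both cell types with no difference past the spread between arrays. AKT1 (LOC4326245), named here for that role, had 471, 568 and 381 in synergids and 302, 478 and 549.7 in antipodals, a log2 fold change of 0.11 (SE 0.47), read from a probe set marked for possible cross-hybridisation.

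The 13 members outside those picked by the naming rule had adjusted p-values of 0.637 or more in limma. CIPK8 (LOC4326419), which in Arabidopsis takes part in nitrate sensing, had 1331, 758 and 1537 in synergids and 1905, 713 and 1806 in antipodals, for a log2 fold change of -0.22 (SE 0.45). CIPK17 (LOC4337736) had 1224, 2284 and 1698 against 2219, 935 and 1422 (log2 fold change 0.23). CIPK18 (LOC4338445) had 625, 825 and 1195 against 398, 427 and 842 (0.68), with antipodal array 3 above synergid arrays 1 and 2. CIPK16 (LOC4347071) had 488, 576 and 866 in synergids, all inside the antipodal range of 191 to 1045. CIPK11 (LOC107275263), whose Arabidopsis namesake restrains the proton pump of the plasma membrane, had 266, 646 and 275 against 404, 439 and 570.3 (log2 fold change -0.35). CIPK20 (LOC4338083) was dim throughout, at 42.2 to 109.9 in synergids and 56.3 to 78.9 in antipodals. CIPK12 (LOC4325613), which raises drought tolerance of rice when overproduced, was dim too, with 101, 52.3 and 42.0 against 119, 12.8 and 41.3.

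The spread between arrays of a cell type was wide for part of the family. The highest signal over the lowest had a median of 2.03 among synergid arrays and 2.37 among antipodal arrays over the 31 genes, against 2.14 and 2.96 over all tested probe sets. It ranged from 1.02 (CBL2) to 146 (CIPK30) among synergid arrays and from 1.04 (CBL9) to 70.9 (CIPK5) among antipodal arrays. The standard error of the log2 fold change was 0.31 to 1.12, with a median of 0.46 for the members and 0.67 for all tested probe sets. Members were read from the brightest probe set of each gene, while all tested probe sets were not picked this way. The part of brightness in these values, and in the shares of intervals within 2-fold, was not tested.

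Of the 8 genes read by several probe sets, 4 (CBL9, CIPK7, CIPK10 and CIPK23) had values of the same sign on all of them and 4 (CIPK2, CIPK12, CIPK31 and CIPK32) did not. The 3 probe sets of CIPK2 ran from -0.80 to 0.72 and the 2 of CIPK12 from -0.995 to 0.35. CBL9, CIPK2, CIPK11 and CIPK16 were read from probe sets whose suffix marks possible hybridisation with other transcripts. CIPK14 has a close relative, CIPK15, which was not analysed here, and whether the CIPK14 probe set also reads it was not tested. In the gene table CIPK30 lies directly beside CIPK12, and CIPK29 beside CIPK2, with 0 protein-coding genes between them. Within the first pair the log2 fold changes were -1.81 (CIPK30) and 0.35 (CIPK12), and within the second 0.70 (CIPK29) and 0.19 (CIPK2).

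Related gene lists were read from the same fit, and none had a member past the threshold. Among transporters and oxidases of families that hold CBL-CIPK targets (20 tested of 27), 5 (25%) had an unadjusted p under 0.05, against 8.3% of all tested probe sets. In the same list 3 genes lay wholly higher and 1 wholly lower in synergids (20%, against 13.4% of all tested probe sets), and the median log2 fold change was 0.07. The smallest p belonged to AMT1;1 (LOC4336365), an ammonium transporter of a family that CIPK23 inhibits in Arabidopsis. It had 773, 246 and 435 in synergids against 3063, 1217 and 2393 in antipodals, with no overlap (log2 fold change -2.21, SE 0.49, adjusted p = 0.0933 in limma). Calcium-dependent kinases, which join sensor and kinase in 1 protein, had 15 of 18 tested members above 0 (83.3%, against 45.3% of all tested probe sets) and a median of 0.71. Of these 18, 5 lay wholly higher and 1 wholly lower in synergids (33.3%, against 13.4%), and 8 had an unadjusted p under 0.05 (44.4%, against 8.3%). The smallest p of that list belonged to CPK21 (LOC4346187), with 4192, 1359 and 1262 in synergids against 11579.6, 4322 and 5745 in antipodals, giving a log2 fold change of -1.76 (adjusted p = 0.224 in limma).

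Calmodulins and calmodulin-like proteins, the other main calcium sensors, were evenly split, with 12 of 24 tested members above 0 and a median of -0.004. In that list 4 had an unadjusted p under 0.05 (16.7%). For this list and those that follow, the shares over all tested probe sets were 45.3% above 0 and 8.3% with an unadjusted p under 0.05. CAM1 (LOC4324384) had 8345, 11416 and 9745 in synergids against 3329, 3657 and 5804 in antipodals, a log2 fold change of 1.24 (SE 0.32, adjusted p = 0.201 in limma). The SnRK1 and SnRK2 kinases, sister groups of the CIPKs, had 7 of 12 above 0 and 4 with an unadjusted p under 0.05 (33.3%). Their smallest p belonged to the stress kinase SAPK10 (LOC4333435), with 282, 246 and 193 against 1003, 815 and 496 (log2 fold change -1.58). Of 55 protein phosphatases 2C, some of which bind CIPKs, 33 were above 0 and 6 (10.9%) had an unadjusted p under 0.05, and OsPP2C33 (LOC4332577) had the smallest p (log2 fold change 1.55, adjusted p = 0.296 in limma). Among 9 tested calcium channels and pumps, 4 were above 0 and 2 (22.2%) had an unadjusted p under 0.05. The gene with the symbol ACA1 had 586, 509 and 442 in synergids against 136, 20.4 and 7.33 in antipodals, at a log2 fold change of 3.38 (SE 0.75, adjusted p = 0.0971 in limma). Genes without overlap were 20.8% of the tested calmodulins and 25% of the SnRK1 and SnRK2 kinases. They were 21.8% of the phosphatases and 22.2% of the channels and pumps, against 13.4% of all tested probe sets.

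**Figure D4:**
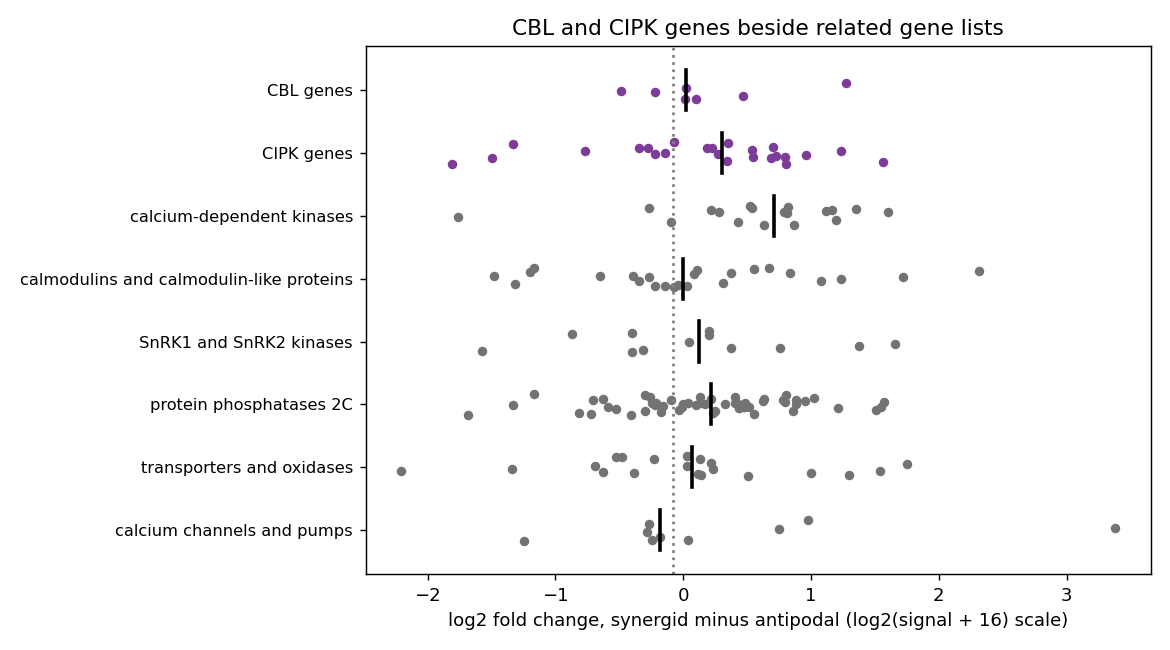
Log2 fold change, synergid minus antipodal on the log2(signal + 16) scale, of each tested gene (points, spread vertically for legibility) in the CBL and CIPK families (purple) and 6 related lists (grey), with black bars for list medians and a dotted line at the median of all tested probe sets (-0.08). The CIPK median is 0.31 and that of the calcium-dependent kinases 0.71, and the points of every list lie on both sides of 0.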

How the data were processed

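The deposited table gives a linear signal intensity for each probe set on each array. GCOS 2.0 and MAS5, which summarises the probes of a probe set on each array separately, are named per the submitters' processing notes. The 2% trimmed mean was the same on all 6 arrays, and 0 columns were left unmatched to a sample. Signals were transformed to log2(signal + 16). Control probe sets (123) and the 40% of the other 57258 with the lowest mean over all arrays (below a signal of 36.7) were left out. Synergids were set against antipodals in limma 3.58.1 under R 4.3.3 (lmFit, eBayes with an intensity trend, 4 residual and 10.6 prior degrees of freedom), with adjusted p-values over 34355 probe sets and a threshold of 0.05. The number of arrays limits the precision.

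Genes were named from the platform annotation, through the 22436 probe sets paired with 1 gene that matched a RefSeq gene table (ASM3414082v1) by gene number. The brightest probe set stood for a gene with several, and signals of different probe sets are not comparable as transcript levels. Where a locus lists 2 numbers, the Os-prefixed one or the one held by no other locus was used. Values are printed for members called, without overlap, among the 3 highest or lowest log2 fold changes, or among the 4 CBL and 6 CIPK genes with the brightest probe sets; further members were added after their values were seen. Members, lists, the number-format and poly-A splits and the alternatives (scaling, pseudocounts of 1 and 64, no filter, variance models, blocks, left-out arrays, probe set averaging) were chosen with earlier results of these data known. Replicate numbers were checked for pairing: same-numbered arrays deviated together with r = 0.218, 0.116 and 0.0197 over tested probe sets. Arrays of other numbers had r from -0.153 to 0.0216. These values do not settle whether the numbers mark pairs. The labels state no pairing, and the number entered only as a block in an alternative fit (the replicate block).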

Additional observations from a re-analysis of the deposited data

How the results depend on the processing

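The count of 0 CBL and CIPK genes past the threshold held in 15 of 18 other settings. It was 1 with the poly-A control split as a block (CIPK14), 1 with the replicate block (CIPK14, adjusted p = 0.0354) and 0 to 1 over the fits that leave out an array, where CIPK5 was called without antipodal array 1. The replicate block changed no other member's call. Genes without overlap numbered 3, against 5 to 10 with an array left out and 10 on the 4 arrays of the longer number format, where fewer arrays make overlap rarer. The members' median log2 fold change stayed between 0.07 and 0.37. That of all tested probe sets moved as well, from -0.08 to 0.0445 with quantile normalisation, 0.0669 with median centring and 0.02 without antipodal array 2. In these 3 fits the members had 0.25, 0.37 and 0.07.

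Over all tested probe sets, 88 were called higher and 22 lower in synergids. Calls higher and lower numbered 81 and 10 with a pseudocount of 1, 96 and 42 without the filter, 73 and 3 with quantile normalisation, 77 and 2 with median centring, 31 and 0 without an intensity trend, 130 and 63 with array weights, 149 and 144 with the replicate block, 137 and 147 with number format as a block, 239 and 219 on the 4 arrays of the longer format, and 113 and 122 with the poly-A block. With an array left out they ran from 41 to 123 higher and from 1 to 221 lower. The cause of these shifts was not tested.

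Among the 18 members named by rule, signs turned for 3, none of them called. CBL6 had -0.031 with quantile normalisation, -0.32 with array weights, -0.18 with the poly-A block, and -0.44 to 0.45 with an array left out. CIPK7 had 0.0017 with median centring and 0.16 with array weights, and -0.35 to 0.17 with an array left out. CIPK31 had -0.84 to 0.024 with an array left out. The widest intervals, and so the least firm values, were those of CIPK5, CIPK30, CBL4, CIPK12 and CIPK20.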
